A study of Danio rerio with 6 samples.

Results

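Fibronectin is a large secreted glycoprotein that cells assemble into fibrils around themselves. Cells hold and sense these fibrils through integrins, receptors that are built from an alpha and a beta subunit and that join the matrix outside the cell to actin inside it. In the zebrafish embryo fibronectin is needed for heart precursors to move to the midline, where the endocardium, the inner lining of the heart, comes to lie.

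The genes described here are the zebrafish fibronectins and a set of integrin subunits that form fibronectin receptors. The set does not hold every such subunit: for example, *itga8*, *itgb6* and *itga2b*, which can also form fibronectin receptors, are given with the other integrins below. The members were chosen by name, and 10 symbols were looked up in the deposited gene table: *fn1a*, *fn1b*, *itga4*, *itga5*, *itga9*, *itgav*, *itgb1a*, *itgb1b*, *itgb3a* and *itgb3b*. Of these, 9 were found among the 19722 genes of the table, each under 1 Ensembl identifier, and *itgb3a* was not found under that symbol. The study sorted GFP-positive cells from zebrafish embryos at the 15-somite stage, labelled as wild type in genotype but carrying the transgene of their line, and sequenced 3 libraries of each of 2 transgenic lines. *Gt(endocard:egfp)*, in full *Gt(SAGFF27C); Tg(4xUAS:egfp)*, is a gene-trap line, with its insertion in *map3k22*, that marks the endocardium, and only its cells of high GFP were used. The paper proposes that this line does not report true expression of *map3k22*. At later stages than that of these libraries, the line is reported to label vascular endothelium as well, the myocardium weakly, and probably a few myeloid cells. The paper gives high GFP as a means to limit cardiomyocytes, which express it weakly. *Tg(fli1a:egfp)* marks endothelial cells together with blood cells, and its endothelial cells include the endocardium. No mutant or drug was part of these libraries.

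The table gives each gene a mean over the libraries of the authors' fit. Its heading, AveExpr, names no unit, and the values were read here as log2 CPM. CPM is the number of reads of a gene per 1000000 counted reads. The table has no column for a single library. The sources used here do not say which libraries entered the mean. If they were the 6 labelled ones, it covers the sorted cells of both lines, among which markers of other cells were also found (below). Neither a difference between the lines nor the spread between libraries was analysed here. Since the logarithms were averaged, a value put back on the CPM scale is a geometric mean. A longer transcript gives more reads, and no transcript lengths were used here. The values are therefore shares of the reads, and no order of transcript abundance is drawn from them.

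Both fibronectin genes were in the upper part of the table by read share. The authors' mean of *fn1a* (ENSDARG00000019815), which encodes fibronectin and has been described as an endocardial marker, was 9.55 log2 CPM, or 751 CPM. Only 148 of the listed genes had a higher mean, which places *fn1a* at percentile 99.2 of all genes. The paper reports *fn1a* as enriched in the *Gt(endocard:egfp)* cells, and the mean used here does not give its level in either line. Its paralogue *fn1b* (ENSDARG00000006526), which encodes another fibronectin, had a mean of 6.30 log2 CPM, or 79.0 CPM, at percentile 88.3. In the gene list of the assembly GRCz12tu, *fn1b* overlaps *atic*, a gene of purine synthesis with a mean of 6.93 log2 CPM. There *fn1a* overlaps a long non-coding RNA. This RNA was looked up only by its symbol in that list and was not found, so its read share is unknown. The libraries keep no record of the strand, so reads from these overlaps cannot be assigned with certainty.

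All 4 of the integrin alpha subunits were listed, and each had a mean above that of the median gene, which was 2.58 log2 CPM. *itga5* (ENSDARG00000006353), whose product pairs with the beta1 subunit to form the classical fibronectin receptor, had a mean of 5.75 log2 CPM, or 53.7 CPM, and lay at percentile 83.6. *itga4* (ENSDARG00000103056) encodes an alpha subunit that binds fibronectin and the vascular adhesion molecule VCAM. Its mean was 4.88 log2 CPM, or 29.4 CPM, at percentile 74.5. For *itga9* (ENSDARG00000032435), which encodes a close relative of the alpha4 subunit, the mean was 4.13 log2 CPM, or 17.5 CPM, at percentile 66.1. In GRCz12tu this gene also overlaps a long non-coding RNA, which was likewise not found by its symbol and whose read share is unknown. The mean of *itgav* (ENSDARG00000006314), whose product forms receptors for fibronectin and vitronectin with several beta subunits, was 2.93 log2 CPM, or 7.64 CPM. At percentile 53.8 it was the alpha subunit nearest to the middle of the table, and among genes with a symbol it lay below the middle, at percentile 44.8.

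Among the beta subunits the listed genes were spread from the upper to the lower end of the table. Both members that encode the beta1 subunit, the shared partner of the alpha4, alpha5, alpha9 and alphaV subunits, were listed. *itgb1b* (ENSDARG00000104484) had a mean of 6.81 log2 CPM, or 112 CPM, at percentile 91.8, while *itgb1a* (ENSDARG00000071863) had one of 4.17 log2 CPM, or 18.0 CPM, at percentile 66.6. Of the genes for the beta3 subunit, which pairs with alphaV and, in thrombocytes, with alphaIIb, only *itgb3b* (ENSDARG00000045070) was found. Its mean was -1.71 log2 CPM, or 0.305 CPM, at percentile 11.2. It was the 1 member with a mean under 1 CPM, and the other 8 were at 1 CPM or more. Over all genes, 73.9% had a mean of at least 1 CPM. That share counts genes without a symbol, whose means were mostly lower, and was not calculated for genes with a symbol.

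**Figure D1:**
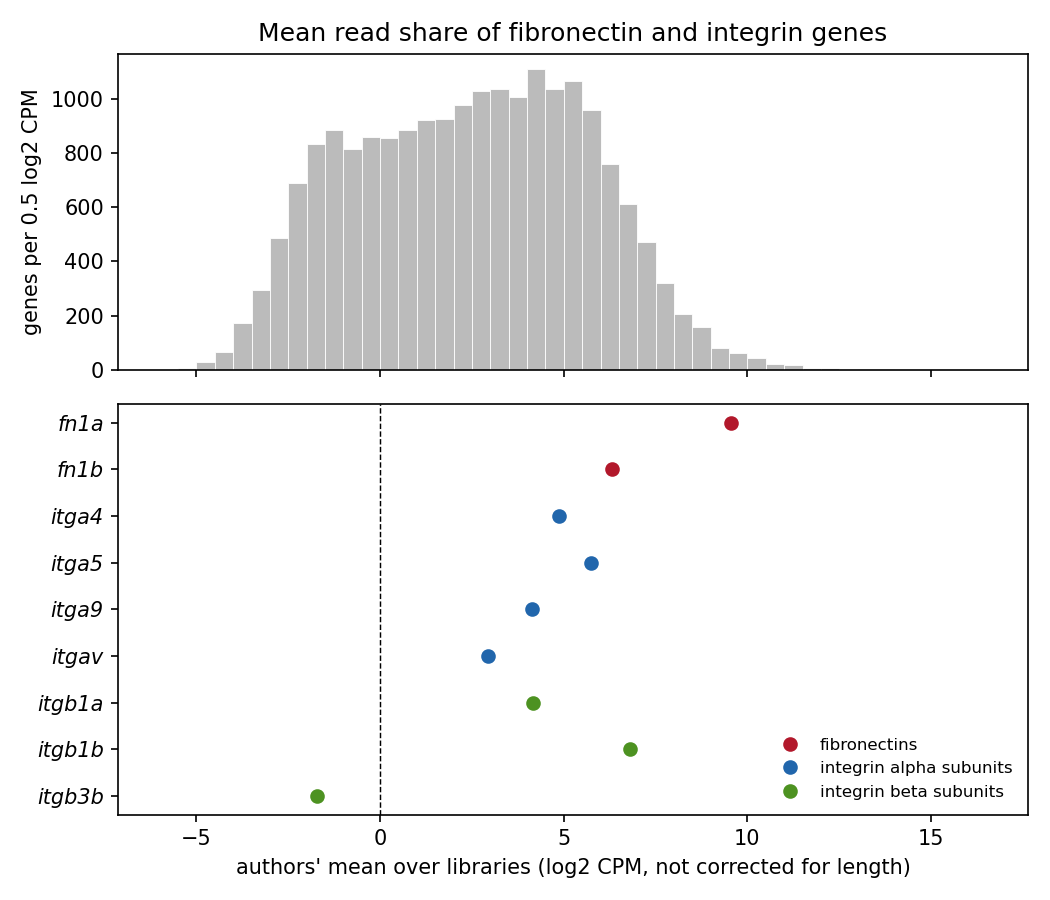
Authors' mean over libraries in log2 CPM (horizontal axis, not corrected for transcript length) for all 19722 genes as a histogram (above, genes per bin) and for each of the 9 listed fibronectin and integrin genes as a point (below, coloured by role), with a dashed line at 1 CPM. *fn1a* lies at 9.55 in the upper tail of the histogram and *itgb3b* at -1.71 lies left of the dashed line.

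The members had a median of 4.88 log2 CPM, and the 7 integrin genes among them one of 4.17. The median was 2.58 for all genes and 3.39 for those with a symbol, as all listed members have. Lists of other genes of integrin adhesion, chosen with earlier results of these data known, were read in the same way. Each median covers only the genes found, and the authors' filter on low counts is not known here. Of 21 symbols for other alpha subunits, 11 were found, 5 of them at 1 CPM or more, beside 73.9% of all genes. The 11 ran from -2.62 log2 CPM for *itga11a*, a collagen receptor subunit, to 4.34 for *itga6a*, a laminin receptor subunit, with a median of -0.17. The mean of *itga8* was -1.05 log2 CPM. *itga2b*, which encodes the thrombocyte partner of beta3, was not found under that symbol. Of 8 symbols for other beta subunit genes, 6 were found, with a median of -0.85 log2 CPM. Those not found were *itgb1b.1* and *itgb1b.2*, further symbols for beta1. The leucocyte subunit gene *itgb2* had a mean of 4.14 log2 CPM and *itgb5*, whose product pairs with alphaV, one of 3.95, while the means of *itgb4*, *itgb6*, *itgb7* and *itgb8* were under 1 CPM, that of *itgb6* at -1.18 log2 CPM.

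Most genes of the adhesion plaque, the protein layer that joins integrins to actin, were at 1 CPM or more, as were most genes of the table. Of 38 symbols 34 were found, with *vcla*, a vinculin gene, under 2 identifiers, and 30 of the 35 rows reached that share. Over all genes, 73.9% reached it, which counts genes without a symbol, whose median was only 0.64 log2 CPM. The share among genes with a symbol was not calculated. The median of the plaque genes was 3.89 log2 CPM, beside 3.39 for all genes with a symbol. The highest read shares were those of *actn4*, which encodes an actin cross-linker, at 8.24 log2 CPM, of the integrin-linked kinase gene *ilk* at 7.43, and of *lims1*, whose product binds Ilk, at 6.50. The talin gene *tln2b* had the lowest mean, -2.59 log2 CPM, and *ptk2ba*, for a kinase related to the focal adhesion kinase, had one of -1.55.

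Other matrix genes whose products bind integrins or fibronectin had a median of 1.83 log2 CPM over the 18 found of 25. The laminin chain genes *lamb1a* and *lama5* had means of 7.37 and 4.65 log2 CPM, and *tnc*, which encodes tenascin C, one of 3.90. By contrast, the mean of *vtna*, a vitronectin gene, was -3.54 log2 CPM, and that of the tenascin gene *tnxba* was -2.38. Among 5 symbols for syndecans and Cd44, cell-surface proteoglycans that also bind matrix, *sdc4* (8.18 log2 CPM) and *sdc2* (4.34 log2 CPM) were found.

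**Figure D2:**
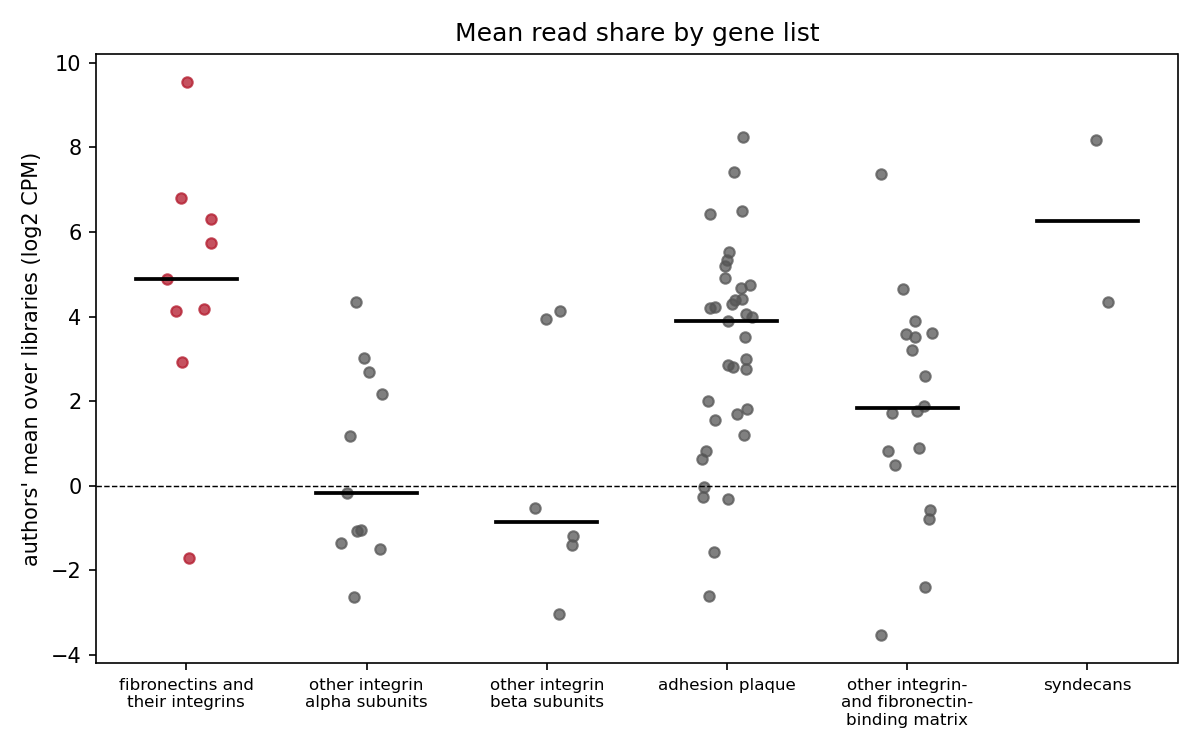
Authors' mean over libraries in log2 CPM (vertical axis) for each listed gene of fibronectin and its integrins (red) and of the other adhesion lists (grey), with the median of each list as a bar and a dashed line at 1 CPM. The median was 4.88 for the members, fibronectins included, and 4.17 for their 7 integrin genes alone (not drawn). It was -0.17 and -0.85 for the other alpha and beta subunits and 3.89 for the adhesion plaque. Other matrix genes had a median of 1.83, and the syndecans, of which only 2 genes were found, one of 6.26.

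The sorted cells were checked against marker genes in the same means. All 9 endothelial and endocardial markers were found, from 1.65 log2 CPM for *pecam1* to 10.22 for *fli1a*, whose reporter was sorted in one of the lines, with *kdrl* at 7.90 and *nfatc1* at 4.50. Their median was 7.54 log2 CPM. Markers of other cells were present too, among them those of blood cells, which *Tg(fli1a:egfp)* marks as well. These means do not show from which line such reads came. The 8 red blood cell genes ran from 1.37 to 8.39 log2 CPM with a median of 6.94. Of 10 myeloid and thrombocyte genes 6 were found, from 0.82 to 10.50 with a median of 4.76. The myeloid regulators *cebpa* (10.50 log2 CPM) and *spi1b* (9.87 log2 CPM) both lay above *kdrl*. The rest of those found lay below *kdrl*, the highest of them being *lcp1* at 5.86. *lyz*, *mpl*, *mfap4.1* and *itga2b* of this list were not found under those symbols. The 6 myocardial genes found of 7 ran from 0.30 to 4.60 log2 CPM with a median of 2.04. The mixed list of somite and epidermal genes had a median of 6.34 log2 CPM. Its epidermal genes ran from 6.12 for *cdh1* to 10.67 for *krt4*, while its somite genes ran from 0.36 for *tnnt3b* to 6.57 for *actc1b*. The epidermal genes *krt4*, *cyt1* (8.42 log2 CPM) and *krt5* (7.93 log2 CPM) lay above *kdrl* too. So did the red blood cell genes *hbbe1.1* (8.39 log2 CPM) and *hbae1.1* (8.26 log2 CPM). Of these genes above *kdrl*, only *krt4*, *cebpa* and *spi1b* also lay above another endothelial marker, *etv2*, at 8.87 log2 CPM. How much of the reads of each fibronectin or integrin gene came from these other cells was not tested.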

How the data were processed

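RNA of sorted GFP-positive cells (2 ng per library, 3 libraries per line) was amplified with Smart-seq2, which keeps no record of the strand. The authors used Rsubread to map reads to GRCz11 and to count reads in genes, and limma for the comparison of lines; versions, the filter on low counts and the normalization are not given in the sources used here. The authors deposited 1 table with an average expression (AveExpr), read here as a mean in log2 CPM, for each of 19722 genes. On the linear scale these means sum to 956297 CPM. Its other columns hold their own comparison of the lines (log2 fold change, confidence limits, moderated t, p-value, adjusted p-value and log-odds) and were not used, so no comparison between the lines was made. With 0 columns of single libraries, depth is unknown and the spread between libraries could not be calculated; the errors held in the columns of the comparison were not used.

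Members were matched by the symbol in the table. For the other lists, genes without a symbol (5630, of which 4591 were named) took that of the gene name list, which added 5 list genes. A percentile is the percentage of the 19722 genes with a lower mean, and its calculation was tested on simulated data. The genes named are the members and, in each list, up to 3 with the highest and 2 with the lowest mean; *kdrl*, *vcla*, *atic*, *itga8*, *itga2b*, *lyz*, *mpl*, *mfap4.1*, *cdh1*, *actc1b* and the beta subunits beyond that rule were chosen after their values were seen. Members and lists were chosen with earlier results of these data known. Levels per coding length and protein sequences were planned but need sequences not used here. Gene overlaps come from the assembly GRCz12tu, another build than that of the counts. Calculations used pandas 2.3.3, numpy 2.4.6 and scipy 1.17.1 in Python 3.11.15, and plots used matplotlib 3.10.9.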

Additional observations from a re-analysis of the deposited data

How the results depend on the processing

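The read shares themselves do not depend on the background, but the percentiles do. Among the 14092 genes with a symbol the percentile was 99.2 for *fn1a*, 85.6 for *fn1b*, 68.6 for *itga4*, 79.7 for *itga5*, 58.6 for *itga9*, 44.8 for *itgav*, 59.1 for *itgb1a*, 89.8 for *itgb1b* and 8.88 for *itgb3b*. Among the 14582 genes of at least 1 CPM it was 99.0 for *fn1a*, 84.2 for *fn1b*, 65.5 for *itga4*, 77.9 for *itga5*, 54.2 for *itga9*, 37.5 for *itgav*, 54.8 for *itgb1a* and 88.8 for *itgb1b*, with no value for *itgb3b*, whose mean is lower. Against either background *itgav* lay below the middle. The 5630 genes without a symbol had a median of 0.64 log2 CPM, beside 3.39 for those with one, and 30 of them had a higher mean than *fn1a*. The alternatives that need values per library (other tests, no filter, leaving out each library) or lengths and proteins (level per coding or transcript length, protein identity) were not run. No paired analysis was possible because the table has no column for a single library.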
